A study of Mus musculus with 29 samples.

Results

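Irradiated mice with the outcome label Die were compared with sham-treated mice by total RNA sequencing of whole blood. The comparison holds 9 of these irradiated animals and 10 sham animals, 19 of the 29 libraries of the series. It was defined by the labels alone. Of 50384 gene symbols, the 11509 with a mean of at least 50 over these 19 libraries were tested.

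The animals were male mice of a strain given as LJ, with 1 library per animal. Die animals received 11.35 Gy to the upper body and were bled at day 120. Sham animals carry the same day and strain, no numeric dose, and the outcome label Live. A further 10 animals received the same dose and carry the label Live. They serve here only to show where the Die animals differ. Blood came from the cheek or the tail vein into a PAX solution, and globin and ribosomal transcripts were removed. The labels do not say which vein was used in which animal. They name no batch, cage or litter and no time of death. The series addresses the response of blood cells to radiation and blood markers of survival after delayed lung injury.

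Whole blood RNA comes mostly from reticulocytes, platelets, neutrophils, monocytes and lymphocytes. Classical monocytes leave the marrow through the chemokine receptor CCR2 and enter inflamed tissue. Non-classical monocytes depend on the fractalkine receptor CX3CR1 and patrol the vessel wall, and both need signals through the CSF1 receptor. Monocytes and neutrophils digest what they engulf with an NADPH oxidase and with lysosomal enzymes. In irradiated lung, monocyte-derived macrophages accumulate during pneumonitis. In bulk blood, fewer cells of a type and less RNA per cell cannot be told apart.

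Each gene symbol has 1 signal value per library, normalised before deposit and called its normalised value here. How the authors computed these values is not given in the sources used here, but in all 29 libraries the median ratio of the genes to their geometric mean was 1.02. The total value per library lay between 19.6 M and 39.3 M in the 19 animals. Many tested genes were listed at 0 in 3 libraries. There were 788 in sham replicate 1, 739 in Die replicate 2 and 484 in Die replicate 14. No other library of the 19 exceeded 200. The share of 7S RNA was the lowest of its group in sham replicate 1 (2.73%), and the 2 lowest of the Die group were those of replicates 14 (3.02%) and 2 (4.97%). The 7S RNA is the scaffold of the particle that targets proteins to the endoplasmic reticulum. Its 2 genes held 17.9% ± 6.57 (SD, n = 10) of the value in sham and 14.2% ± 10.8 (SD, n = 9) in Die animals. Mitochondrial genes held 5.13% ± 1.79 (SD, n = 10) in sham and 8.92% ± 6.80 (SD, n = 9) in Die animals. Beside the results with all animals stand the counts of genes without the 3 libraries, and the medians of gene lists that moved by more than 1.5 times without them. Of the 77 genes named in the text with a change, all kept its direction for Die minus sham without the 3 libraries. Of the 67 with an unadjusted p under 0.05, 5 no longer had one, namely Itga2b, Tlr1, mt-Nd2, Bcl11b and Hdac1. The log2 changes of Pf4, Hba-a1, H2-Eb1 and Klre1 moved by more than 1.5 times. Hemoglobin genes took between 1.90% and 6.96%, and the lung secretory genes Sftpc, Scgb1a1 and Scgb3a2 were listed at 0 in all 19 libraries.

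**Figure D1:**
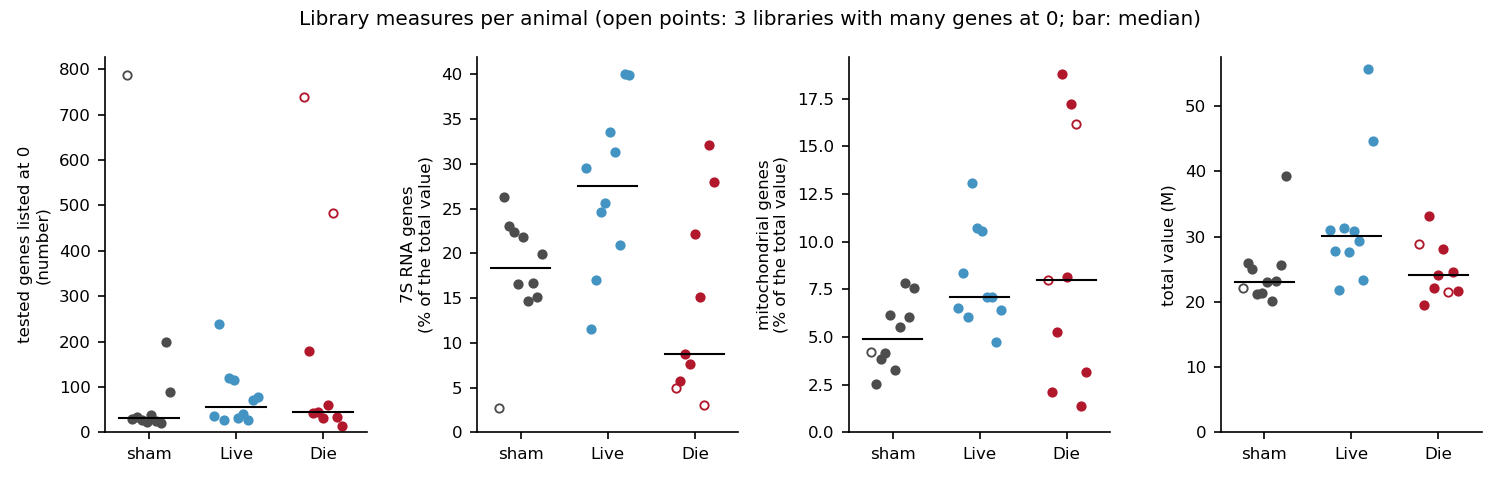
Tested genes listed at 0 (number), the shares of the total value in 7S RNA genes and in mitochondrial genes (%), and the total value (M) in each animal, by group. Open points are sham replicate 1, Die replicate 2 and Die replicate 14, and bars are group medians. The open points hold the 3 highest numbers of genes at 0.

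Over all genes, no gene passed an adjusted p of 0.05 for Die minus sham (limma with Benjamini-Hochberg adjustment over 11509 genes, 0.0% called). The smallest adjusted p was 0.0988. An exact two-sided permutation test over the 92378 divisions of the 19 animals also called 0 genes, with a smallest adjusted p of 0.0831. The smallest p this test can give is 1.08e-05, with which 1 gene alone cannot pass after adjustment over 11509 genes. Its count of 0 therefore cannot tell a lack of change from that limit. At an unadjusted p under 0.05, limma listed 1098 genes, 9.54% of those tested, and the permutation test listed 1213. Of the 1098, 475 were higher in Die animals (4.13%) and 623 were lower (5.41%). Counts of list members at this level for Die minus sham are to be read against these shares. The median log2 change over all genes was -0.02, and 51.6% of genes were lower in Die animals. The animals of the Die group also varied more among themselves. The median over genes of the SD between animals, on the log2 scale, was 0.65 in Die and 0.55 in sham animals. It was 0.51 and 0.43 without the 3 libraries. With all animals, the SD was higher in Die than in sham animals for 63.2% of genes.

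Without the 3 libraries, 9 genes passed the threshold (limma, 0.0782% of 11509), and all 9 were lower in Die animals. They were Cx3cr1, Csf1r, Psap, Mpeg1, Emilin2, Cln8, Tifab, Aldh3b1 and Nrp1. When instead each library was weighted by its own estimated spread, limma called 112 genes (0.973%), of which 98 were lower (0.852%) and 14 higher in Die animals (0.122%). The 9 genes were among the 112. The weights were 0.111 for sham replicate 1, 0.156 for Die replicate 2 and 0.191 for Die replicate 14, against 0.526 to 3.10 for the others. Without sham replicate 1 alone, 19 genes passed, 18 of them lower, and without Die replicate 11 alone only Cln8 did. Genes lower in Die animals by more than 1 on the log2 scale numbered 635 (5.52%), against 315 (2.74%) higher by as much. At an unadjusted p under 0.05 without the 3 libraries, 921 genes were lower (8.0%) and 633 higher (5.5%), 13.5% in all. With a library measure as a covariate and all 19 animals, limma called 2 genes for the number of genes above 0 (Cln8 and Cx3cr1, 0.0174%), 0 for the share of 7S RNA and 0 for the share of the mitochondrial rRNA mt-Rnr2, at an adjusted p under 0.05. Both called genes were lower.

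**Figure D2:**
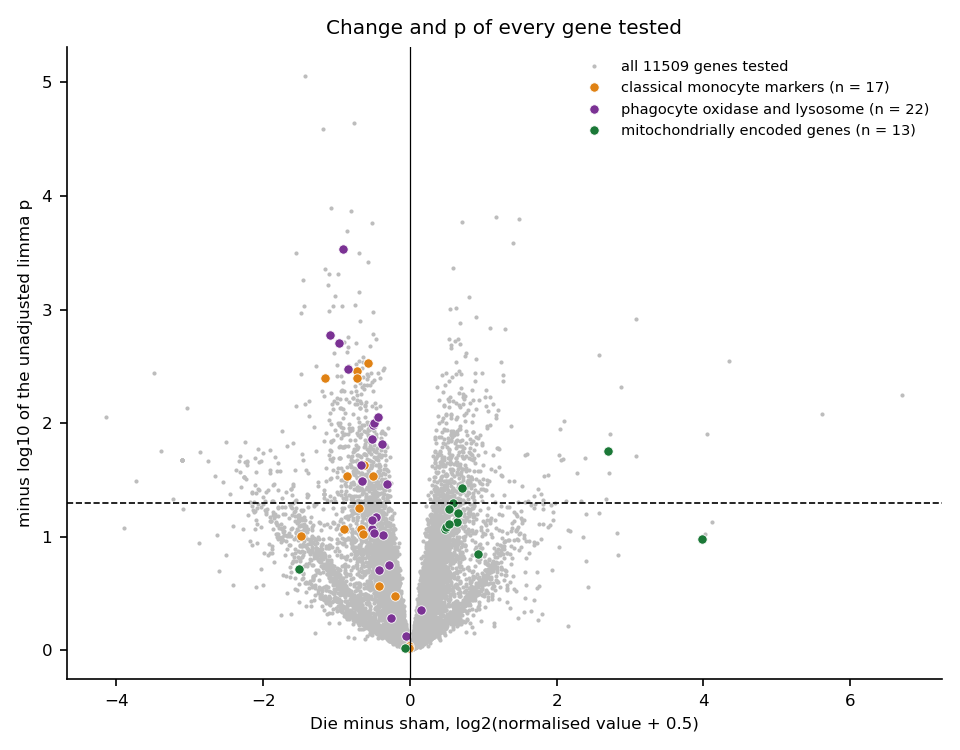
Die minus sham on the log2(normalised value + 0.5) scale (x axis) against the minus log10 of the unadjusted limma p (y axis) for each tested gene over 19 animals. The dashed line marks an unadjusted p of 0.05. All 17 classical monocyte markers and 21 of 22 phagocyte genes lie left of 0, and 11 of 13 mitochondrially encoded genes lie right of it.

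The genes of smallest p that were lower in Die animals included surface proteins of monocytes and neutrophils. Cln8 (chr8:14881335-14901720, GRCm38), a membrane protein that loads lysosomal enzymes for export from the endoplasmic reticulum, had normalised values of 691 to 1541 (median 1056) in sham and 172 to 759 (median 387) in Die animals. Its log2 change was -1.42 ± 0.25 (SE), with an adjusted p of 0.0988 and an exact permutation p of 2.17e-05. Of the 9 Die animals, 8 lay below every sham animal. Adgre4 (chr17:55749984-55853662), an adhesion receptor of mouse monocytes and macrophages, ranged from 441 to 800.2 (median 679.8) in sham and 317 to 469 (median 380.2) in Die animals. The change was -0.77 ± 0.14, with an adjusted p of 0.0988. The groups overlapped in 2 Die animals, since 7 of the 9 lay below all sham animals. Cx3cr1 (chr9:119901616-120069879), the fractalkine receptor, ranged from 442 to 1810.2 (median 1088) in sham and 306 to 727 (median 417) in Die animals. Its change was -1.19 ± 0.22, with an adjusted p of 0.0988, and all 9 Die animals lay below the sham median. The lowest sham value belonged to sham replicate 1, and without the 3 libraries the change was -1.35 ± 0.20, adjusted p 0.0238.

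Os9 (chr10:127095650-127121131), a lectin that selects misfolded glycoproteins for degradation, was the only tested gene whose Die animals all lay below all sham animals (0.00869% of genes). Its normalised values were 1247 to 1774 (median 1403) in sham and 782 to 1204 (median 1026) in Die animals. The change was small, -0.51 ± 0.11 with all animals and -0.51 ± 0.11 without the 3 libraries, and its exact permutation p of 1.08e-05 is the smallest that 92378 divisions can give. Cd177 (chr7:24743983-24760311), a surface protein of neutrophils, ranged from 536 to 1649 (median 1158) in sham and 266 to 713 (median 593) in Die animals, a change of -1.08 ± 0.23 with all animals and -0.997 ± 0.23 without the 3 libraries. Tmbim1, a membrane protein of the lysosome and Golgi, ranged from 747 to 1256 (median 883) in sham and 337 to 854 (median 511) in Die animals, a change of -0.80 ± 0.17. In both genes every Die animal lay below the sham median, though the ranges overlapped. Cotl1, which binds filamentous actin, differed by -0.86 ± 0.19. The glycolytic enzyme gene Eno1, which has near-identical copies that can share reads, differed by -0.70 ± 0.16. Arhgef10l had the largest change of the 10 lower genes with the smallest p, -1.55 ± 0.36, with 289.7 to 772 (median 435) in sham and 32.7 to 378 (median 146) in Die animals. In these 3 genes too, all 9 Die animals lay below the sham median, a pattern that 2.81% of tested genes had.

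**Figure D3:**
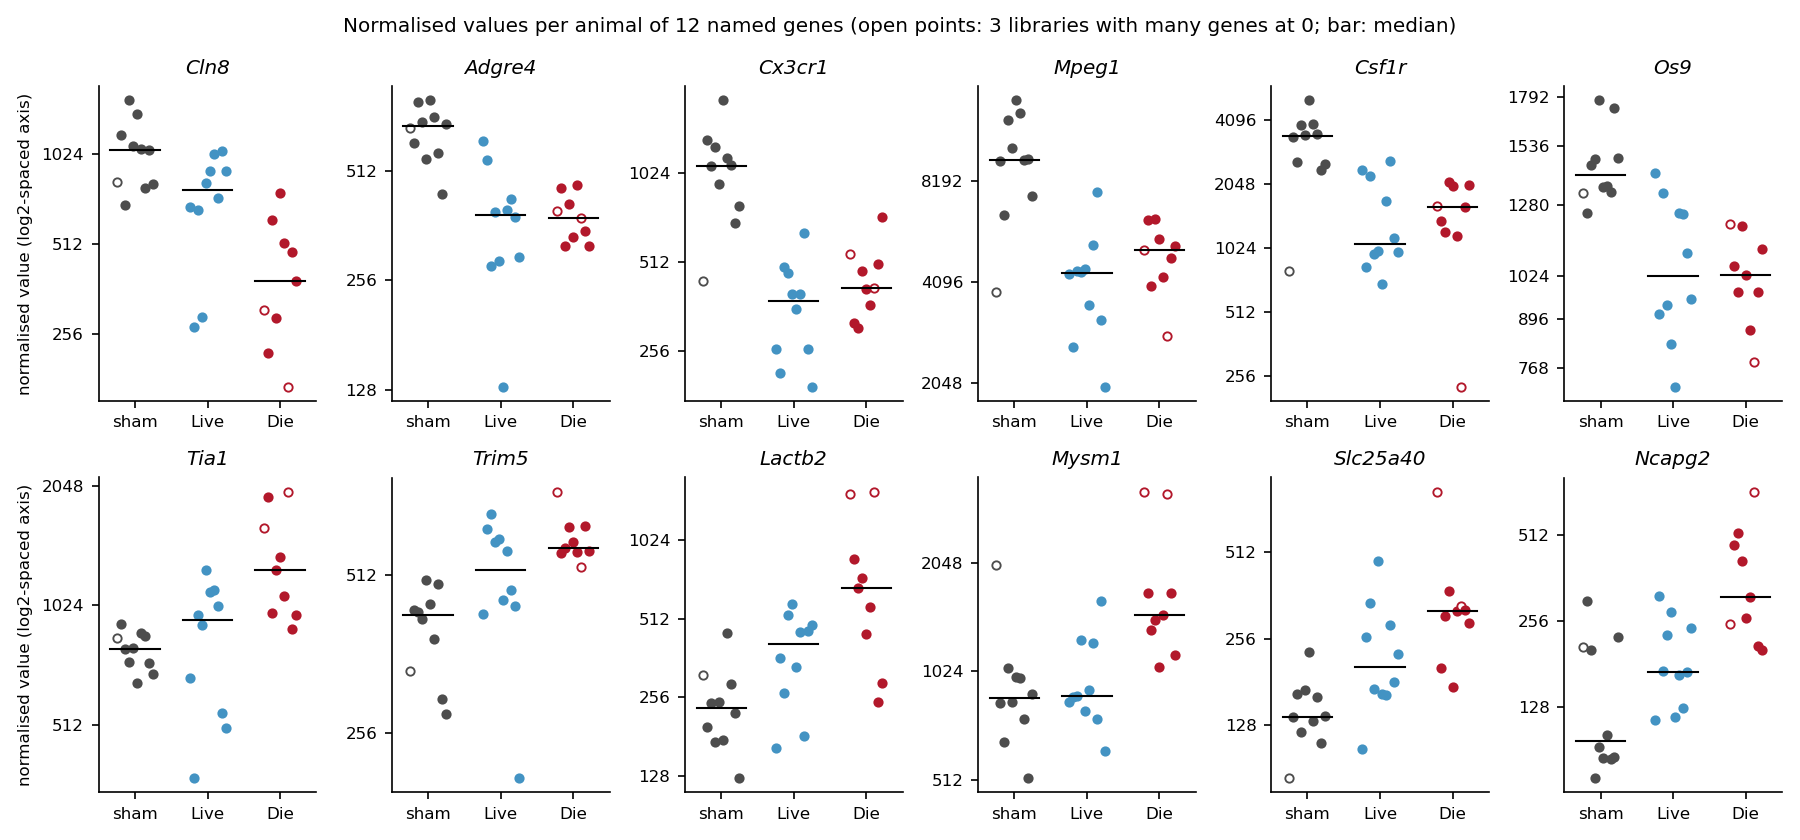
Normalised values (log2-spaced axis) of 6 genes lower and 6 genes higher in Die than in sham animals, 1 point per animal in sham (n = 10), Live (n = 10) and Die (n = 9). Open points are the 3 libraries with many genes at 0 and bars are medians. In Os9 and Trim5 the sham and Die points do not overlap, and in the 6 lower genes the medians of Live and Die both lie below the sham median.

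Classical monocyte markers stood lower in Die animals as a list. All 17 had a log2 change below 0, with a median of -0.65 against -0.02 over all genes, and 8 had an unadjusted p under 0.05, where 5.41% of all genes did so in that direction. None passed the adjusted threshold. Without the 3 libraries the median was -0.66, 11 had an unadjusted p under 0.05, all lower, and Csf1r passed the adjusted threshold. The median was -0.50 with the share of 7S RNA as a covariate and -0.65 with the number of genes above 0. The mean of the list per animal, as a log2 difference from the sham mean, lay between -1.14 and 0.61 in sham and between -1.86 and -0.23 in Die animals. All 9 Die animals lay below the sham median, but only Die replicate 14 lay below every sham animal. For phagocyte, non-classical monocyte, complement and Fc receptor and apoptosis lists, the means of all 9 also lay below the sham median. Csf1r (chr18:61100598-61132149), whose ligand CSF1 keeps monocytes alive, ranged from 798 to 5063 (median 3434) in sham and 228 to 2086 (median 1601) in Die animals. Its change was -1.16 ± 0.36 with an adjusted p of 0.455, and -1.06 ± 0.17, adjusted p 0.0273 without the 3 libraries. The lowest value of each group, 798 and 228, came from those libraries. Ccr2, the receptor for the monocyte attractant CCL2, ranged from 7679 to 22820.2 (median 14448) in sham and 5547 to 15248 (median 7899) in Die animals, a change of -0.72 ± 0.22. F13a1, the coagulation factor XIII subunit that monocytes make, differed by -0.57 ± 0.17, and Ms4a6c, a membrane protein of monocytes with close relatives in its family, by -0.73 ± 0.23. For F13a1 and Ms4a6c every Die animal lay below the sham median, and for Ccr2 8 of 9 did. Their adjusted p values were 0.455 for Ccr2 and 0.455 for F13a1.

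Of 13 tested non-classical monocyte markers, 11 were below 0, with a median of -0.46. Only Adgre4, Cx3cr1 and Itgal had an unadjusted p under 0.05, all lower. Itgal, the alpha chain of the integrin LFA-1 that lymphocytes carry too, differed by -0.46 ± 0.19. Without the 3 libraries the list median was -0.35 and 6 members had an unadjusted p under 0.05.

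Phagocyte oxidase and lysosome genes had low values in Die animals with 1 exception. Of 22 members, 21 were below 0 with a median of -0.49, and 12 had an unadjusted p under 0.05, all lower. Without the 3 libraries this number was 20, and Mpeg1 and Psap passed the adjusted threshold. The list median was -0.35 with the share of 7S RNA as a covariate and -0.49 with the number of genes above 0. Mpeg1 (chr19:12460779-12465283), the gene of perforin-2, with which phagocytes pierce engulfed bacteria, ranged from 3814 to 14298 (median 9497) in sham and 2822 to 6323 (median 5112) in Die animals. The change was -0.92 ± 0.21 with all animals, and -0.96 ± 0.17, adjusted p 0.0435 without the 3 libraries. Psap (chr10:60277627-60302597), the precursor of the saposins that help degrade sphingolipids, ranged from 4467 to 28511 (median 16925) in sham and 2446 to 11213 (median 9195) in Die animals. It differed by -1.09 ± 0.30 with all animals, and by -1.10 ± 0.18, adjusted p 0.0273 without the 3 libraries. In both genes the lowest sham value, from sham replicate 1, lay inside the Die range, and the other 9 sham animals lay above the Die median. Grn, the precursor of the lysosomal granulins, differed by -0.97 ± 0.28, and Cd68, a lysosomal membrane protein of macrophages, by -0.85 ± 0.26. Cybb, the catalytic subunit of the NADPH oxidase, ranged from 3849 to 8837 (median 6657) in sham and 3483 to 7114 (median 4119) in Die animals, with a change of -0.50 ± 0.18 and an adjusted p of 0.473.

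The other genes called without the 3 libraries have less specific roles. Emilin2, an extracellular glycoprotein, differed by -0.98 ± 0.18, adjusted p 0.0435. Tifab, an inhibitor of signalling through TRAF6, differed by -1.17 ± 0.22, adjusted p 0.0435. Aldh3b1, an aldehyde dehydrogenase, differed by -1.18 ± 0.22, adjusted p 0.0435. Nrp1, a coreceptor for semaphorins and VEGF, differed by -1.03 ± 0.19, adjusted p 0.0435. For each of these 4 genes, all 9 Die animals of the full comparison lay below the sham median, and the values with all 19 animals were between -1.15 (Aldh3b1) and -0.79 (Nrp1).

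Upstream sequences are shown for 3 of the 9 genes, the fractalkine receptor and both members of the phagocyte list, to set a monocyte receptor beside the phagocyte genes. The choice is not a ranking by p. RefSeq (GRCm38.p6) gave 9 promoters for 7 of the 9 genes. The letters GAGGAA, a core bound by the myeloid factor PU.1, were searched on both strands in the 250 bases before each start. They were found in 3 of these 9 windows and in 23.3% of the 32851 windows of the table. Capitals mark a match, written TTCCTC on the other strand, and the Cx3cr1 and Mpeg1 windows hold none. The windows are chr9:120068297-120068546 on the minus strand for Cx3cr1, chr19:12460520-12460769 on the plus strand for Mpeg1 and chr10:60277378-60277627 on the plus strand for Psap, each 5′ to 3′. Psap has a second window in the table, chr10:60284211-60284460, which is not shown and holds no match.
Cx3cr1: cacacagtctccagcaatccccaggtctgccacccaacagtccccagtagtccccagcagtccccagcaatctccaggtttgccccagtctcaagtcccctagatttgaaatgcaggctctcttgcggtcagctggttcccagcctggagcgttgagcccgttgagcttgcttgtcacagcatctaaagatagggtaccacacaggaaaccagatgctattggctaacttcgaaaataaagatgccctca
Mpeg1: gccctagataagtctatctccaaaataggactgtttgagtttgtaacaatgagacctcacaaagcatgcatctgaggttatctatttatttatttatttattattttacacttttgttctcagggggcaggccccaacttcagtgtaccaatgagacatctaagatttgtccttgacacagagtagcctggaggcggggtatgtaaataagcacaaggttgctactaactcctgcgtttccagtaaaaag
Psap: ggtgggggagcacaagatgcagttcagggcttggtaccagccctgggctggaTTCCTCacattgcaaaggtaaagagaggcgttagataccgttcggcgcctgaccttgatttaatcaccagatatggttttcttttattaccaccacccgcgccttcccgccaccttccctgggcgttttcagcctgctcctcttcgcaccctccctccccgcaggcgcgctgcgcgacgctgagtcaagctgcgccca

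The genes of smallest p that were higher in Die animals had varied roles, and none passed an adjusted p of 0.05 with or without the 3 libraries. Trim5 (chr7:104263386-104288094), of a family known for blocking retroviruses in primates, with close relatives beside it in the mouse genome, was the only tested gene whose Die animals all lay above all sham animals (0.00869%). Its values were 278 to 502 (median 429) in sham and 529 to 737 (median 575) in Die animals, a change of 0.59 ± 0.14, and 0.55 ± 0.15 without the 3 libraries. Tia1 (chr6:86404219-86433405), an RNA-binding protein of stress granules, ranged from 653 to 917 (median 796) in sham and 890.0 to 1978 (median 1255) in Die animals, a change of 0.71 ± 0.16 with an exact permutation p of 2.17e-05. It was 0.59 ± 0.15 without the 3 libraries. Of the 9 Die animals, 8 lay above every sham animal. Lactb2 (chr1:13623330-13660546), a mitochondrial endoribonuclease, ranged from 125 to 450.3 (median 233) in sham and 245 to 1567 (median 672) in Die animals, a change of 1.49 ± 0.33 with all animals and 1.17 ± 0.28 without the 3 libraries. Slc25a40, a mitochondrial carrier linked to glutathione import, ranged from 84.0 to 231 (median 137) in sham and 174 to 826 (median 318) in Die animals, a change of 1.18 ± 0.26. The highest value of Slc25a40 was in Die replicate 2, and without the 3 libraries its change was 0.89 with an adjusted p of 0.103.

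Ncapg2, a subunit of condensin II, had 72.5 to 300.7 in sham and 202.0 to 722 in Die animals, a change of 1.41 ± 0.32. Mysm1 (chr4:94942040-94979100), a histone H2A deubiquitinase needed for blood stem cells in mice, ranged from 518 to 2018 (median 864) in sham and 1052 to 3216 (median 1468) in Die animals, a change of 0.89 ± 0.24. Its highest sham value was in sham replicate 1. Erap1, the aminopeptidase that trims peptides for MHC class I, differed by 0.63 ± 0.16. Npepps, a cytosolic aminopeptidase, differed by 0.68 ± 0.18. Wasl, which starts actin branching, differed by 0.80 ± 0.20 and Exoc4, a subunit of the exocyst, by 0.54 ± 0.14. All 9 Die animals lay above the sham median in each of these 6 genes but Exoc4, where 8 did. That pattern held for 2.31% of tested genes.

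Innate sensing genes were mostly lower. Of 23 Toll-like receptor and inflammasome genes 19 were below 0, with a median of -0.28, and 3 were lower and 1 higher at an unadjusted p under 0.05, where 5.41% and 4.13% of all genes were. These counts were 3 and 0 without the 3 libraries. Tlr2, the receptor for bacterial lipoproteins, differed by -0.74 ± 0.21 and lay below the sham median in all 9 Die animals. Myd88, the adaptor of most Toll-like receptors, differed by -0.81 ± 0.29, and Tlr13, a mouse sensor of bacterial ribosomal RNA, by -0.58 ± 0.22. Tlr1, the partner of Tlr2, differed by 0.44 ± 0.19 with all animals and by 0.35 ± 0.18 without the 3 libraries, which include its highest value, that of Die replicate 14. Of 14 complement and Fc receptor genes 11 were below 0, with a median of -0.40, and 4 were lower and 0 higher at an unadjusted p under 0.05. These counts were 8 and 1 without the 3 libraries. C3, the central complement component, ranged from 1419 to 4053 (median 3201) in sham and 716 to 2968 (median 1262) in Die animals, a change of -1.02 ± 0.26. Of 11 tested cytokine and chemokine genes 9 were below 0, with a median of -0.08. The monocyte attractant gene Ccl9 differed by -0.78 ± 0.28, lower than the sham median in all 9 Die animals.

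Of 9 tested dendritic cell markers 6 were below 0 and 3 above, with a median of -0.46. An unadjusted p under 0.05 was reached by 3 of them, all lower, where 5.41% of all genes did so in that direction. Flt3 and Irf8 were among the 3. The mean of the dendritic list lay below every sham animal in 6 of 9 Die animals. Flt3, the receptor whose ligand drives dendritic cell formation, ranged from 195 to 382 (median 229.9) in sham and 32.5 to 253 (median 143) in Die animals, a change of -0.98 ± 0.35. Irf8, a transcription factor that dendritic cells and monocytes need, differed by -0.56 ± 0.22. Neutrophil markers were split. Of 20, 15 were below 0 with a median of -0.24, and -0.14 without the 3 libraries. At an unadjusted p under 0.05, 2 were lower and 1 higher with all animals, where 5.41% and 4.13% of all genes were. Without the 3 libraries 3 were lower and 0 higher. S100a8, a subunit of calprotectin, differed by 0.38 ± 0.28. S100a8 ranged from 6776 to 26272 (median 11968) in sham and 5721 to 30083 (median 17647) in Die animals, with wide overlap. Of 5 tested eosinophil genes 3 were below 0 and 2 above. Their changes ran from -1.44 to 1.12, with a median of -0.46. Only Ear2, an RNase with close relatives, had an unadjusted p under 0.05, with a change of -0.84 ± 0.36. Immature granulocyte markers gave no stable value. The 5 tested members had a median of -0.68, and 0.05 without the 3 libraries.

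B cell, T cell, platelet and red cell lists lay near the middle of all genes. B cell markers had a median of 0.12 over 17 genes, and 0.18 without the 3 libraries. Of these 10 were above 0, and 1 was higher at an unadjusted p under 0.05. T cell markers had a median of 0.08 over 21 genes, 13 above 0 and 8 below. At an unadjusted p under 0.05, 1 was higher (Il7r) and 1 lower (Bcl11b). Cd79a, a chain of the B cell receptor, differed by -0.47 ± 0.32 and Ighd, the IgD heavy chain, by 0.36 ± 0.14. Cd3e, a chain of the T cell receptor complex, differed by 0.50 ± 0.43, with a sham range of 46.5 to 808 set at its low end by sham replicate 1. Il7r, the receptor for interleukin 7 on T cells, lay above the sham median in all 9 Die animals, with 2678 to 6363 (median 3311) in sham and 3842 to 10054 (median 4656) in Die animals and a change of 0.54 ± 0.18. Bcl11b, a transcription factor that T cells need, ranged from 987 to 1672 (median 1273) in sham and 680.1 to 1741 (median 990.2) in Die animals, a change of -0.36 ± 0.17. It lay below the sham median in 7 of 9 Die animals. Of 13 tested natural killer and cytotoxic markers 8 were below 0 and 5 above, with a median of -0.37, and -0.19 without the 3 libraries. At an unadjusted p under 0.05, 1 was lower (Tbx21) and 1 higher (Klre1), where 5.41% and 4.13% of all genes were. Tbx21, the factor T-bet of cytotoxic and helper cells, was low in all animals, with 30.8 to 143 (median 75.4) in sham and 0 to 68.5 (median 33.9) in Die animals. All 9 Die animals lay below its sham median. Klre1, a lectin-like receptor of natural killer cells, had 0 to 110.1 (median 51.5) in sham and 50.6 to 131 (median 79.3) in Die animals, and 8 of 9 Die animals lay above its sham median. With values this close to 0 no size of change is given for either gene. Platelet markers had a median of -0.13 over 19 genes, 12 of them below 0, and -0.24 without the 3 libraries. Pf4, the platelet factor 4 gene, overlapped widely between the groups, with 4609 to 20041 (median 6957) in sham and 4214 to 11449 (median 8098) in Die animals. Itga2b, the platelet integrin alpha IIb, differed by -0.45 ± 0.20. Erythroid markers had a median of -0.06, and -0.14 without the 3 libraries. Hba-a1, an alpha globin gene with a near-identical copy, differed by -0.04 ± 0.46.

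Both DNA damage lists had a median above 0. The p53 target list had a median of 0.18 over 19 tested genes, with 11 above 0 and 8 below. Their changes ran from -1.07 to 0.99. At an unadjusted p under 0.05, 2 were higher and 0 lower, where 4.13% and 5.41% of all genes were. Without the 3 libraries 3 were higher, where 5.5% of all genes were. Polk, a DNA polymerase that copies past damaged bases, ranged from 97.4 to 623 (median 166) in sham and 193 to 541 (median 320.1) in Die animals, a change of 0.94 ± 0.31 with all animals and 1.10 ± 0.26 without the 3 libraries. Ckap2, a protein of the mitotic spindle, ranged from 35.0 to 302 (median 68.9) in sham and 73.7 to 239 (median 133) in Die animals, a change of 0.99 ± 0.38. All 9 Die animals lay above the sham median of both genes, though the ranges overlapped. Mdm2, the ubiquitin ligase of p53, ranged from 827 to 1313 (median 1147) in sham and 858 to 1986 (median 1305) in Die animals, a change of 0.24 ± 0.15 with an adjusted p of 0.570. Bax, also a member of the list, lay lower in Die animals. It ranged from 159 to 312 in sham and from 1.96 (Die replicate 2) to 268 in Die animals. Cdkn1a, which encodes the cell cycle inhibitor p21, fell below the minimum mean and was not tested, with normalised values of 0 to 26.6 in sham and 0 to 53.1 in Die animals. Of 22 DNA damage signalling and repair genes 16 were above 0, with a median of 0.15. An unadjusted p under 0.05 was reached by 3, all higher, where 4.13% of all genes did so in that direction. The mean of the list lay above every sham animal in 5 of 9 Die animals and below every sham animal in 1, Die replicate 3. Live animals were high too, with means from 0.03 to 0.43. The median of the means was 0.26 in Live and 0.19 in Die animals, and the highest sham mean was 0.11. Atr, the kinase that senses stalled replication forks, ranged from 338 to 1220.2 (median 637) in sham and 637 to 1382 (median 834) in Die animals, a change of 0.46 ± 0.21. Cell cycle genes had a median of 0.15 over 21 genes, with none under an unadjusted p of 0.05.

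Interferon lists lay close to 0, at -0.11 over 21 type I response genes and -0.01 over 17 interferon gamma response genes. They were at -0.05 and 0.02 without the 3 libraries. Of the type I genes 11 were below 0 and 10 above, and of the interferon gamma genes 9 and 8. At an unadjusted p under 0.05, 1 and 2 were lower and 0 higher, where 5.41% and 4.13% of all genes were. Mx1, an antiviral GTPase, differed by -1.04 ± 0.35, the low end of a type I range from -1.04 to 0.45. Tap1, the peptide transporter of MHC class I, differed by -0.38 ± 0.17, and interferon gamma genes ran from -0.80 to 0.12. Genes of the unfolded protein response had a median of -0.23, and 4 of 20 had an unadjusted p under 0.05, all lower. Over all genes 5.41% were lower at that level. Hspa5, the main chaperone of the endoplasmic reticulum, ranged from 1832 to 4865 (median 3515) in sham and 1819 to 3334 (median 2531) in Die animals, a change of -0.47 ± 0.18, with all 9 Die animals below the sham median. Herpud1, a partner of the degradation machinery there, differed by -0.38 ± 0.15. Immediate early genes had a median of -0.20, and -0.42 without the 3 libraries. Klf4, a transcription factor that monocytes need, differed by -0.68 ± 0.23, and Fos, a subunit of AP-1, by -0.73 ± 0.35. Glycolysis genes had a median of -0.21. Pgam1, a glycolytic mutase with pseudogene copies, differed by -0.62 ± 0.23.

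Housekeeping groups gave mixed values. Among apoptosis regulators, Apaf1, the core of the apoptosome, differed by -0.54 ± 0.15 and lay below the sham median in all 9 Die animals. Birc3, an inhibitor of cell death induced by NF-kappaB, differed by 0.48 ± 0.15 and lay above it in all 9. Of 19 tested autophagy genes 11 were below 0 and 8 above. At an unadjusted p under 0.05, 2 were lower and 0 higher, where 5.41% and 4.13% of all genes were. Their member Gabarap, an autophagosome protein, differed by -0.63 ± 0.25. Chromatin regulators had a median of 0.20 with 18 of 24 above 0, and at an unadjusted p under 0.05 1 was higher and 1 lower. Nsd1, a histone H3 lysine methyltransferase, differed by 0.53 ± 0.15, above the sham median in all 9 Die animals. Hdac1, a histone deacetylase, ranged from 455 to 623 (median 509) in sham and 253 to 619.5 (median 374) in Die animals, a change of -0.38 ± 0.16, below the sham median in 7 of 9. Splicing genes had a median of 0.18 with 20 of 25 above 0, and the splicing factor Rbm39 differed by 0.46 ± 0.20. The highest sham value of Rbm39 was in sham replicate 1. The 10 lists whose medians are not given elsewhere had values between -0.39 (lung epithelial and endothelial markers, 5 genes tested) and -0.05 (glucocorticoid-responsive genes, 14 tested). The lung list was at -0.24 and the glucocorticoid list at -0.10 without the 3 libraries. TGF-beta signalling and matrix genes had a median of -0.21, and -0.19 without the 3 libraries. The mean of the TGF-beta list lay below every sham animal in 7 of 9 Die animals, the most of the 39 lists. Yet 0 of its 15 tested members had an unadjusted p under 0.05 with all animals. Its sham means spanned only -0.12 to 0.17, and Live animals were low too, with a median of -0.28 against -0.24 in Die animals. Stem and progenitor markers were at -0.32 with all animals and -0.19 without the 3 libraries, and, in the same order, antioxidant genes at -0.20 and -0.13. Basophil and mast cell markers were at -0.17 and -0.08, and apoptosis regulators at -0.06 and -0.14.

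Mitochondrially encoded genes had the highest median of the 39 lists, 0.58 over 13 genes, with 11 above 0 and 2 of them at an unadjusted p under 0.05. The mean of the list per animal ran from -0.78 to 1.04 in sham and from -0.70 to 3.02 in Die animals, and the highest was Die replicate 14. The median was 0.49 without the 3 libraries. mt-Nd2, a subunit of complex I, ranged from 942 to 2639 (median 1363) in sham and 855 to 7263 (median 2187) in Die animals, a change of 0.70 ± 0.32. Nuclear genes of oxidative phosphorylation had a median of -0.12, -0.02 without the 3 libraries and 0.00 with the share of 7S RNA as a covariate. Of the 24 nuclear genes 14 were below 0 and 10 above, with changes from -1.61 to 0.83. At an unadjusted p under 0.05, 0 were lower and 1 higher, where 5.41% and 4.13% of all genes were. Cox6c, a subunit of cytochrome oxidase at the top of that range, differed by 0.83 ± 0.33.

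Ribosomal protein genes had a median of 0.02 over 40 genes, and 0.01 without the 3 libraries, yet the Die animals were spread. The mean of the list was -0.70 in Die replicate 14, -0.62 in Die replicate 10 and -0.41 in Die replicate 2, but 0.68 in Die replicate 15 and 0.45 in Die replicate 12. Sham replicate 1 was the lowest of all 19 animals at -0.83, and the other sham animals stayed between -0.27 and 0.41. Rps20, a protein of the small subunit, differed by 0.33 ± 0.14. MHC class II genes were also spread among Die animals, with a median of -0.30 over 10 genes, -0.18 without the 3 libraries and -0.02 with the share of 7S RNA as a covariate. Their mean was -1.72 in Die replicate 14 and -0.98 in Die replicate 2, against 0.61 in Die replicate 16 and 0.58 in Die replicate 15. H2-Eb1, a class II beta chain, ranged from 2465 to 5070.4 (median 4362) in sham and 1515 to 5738 (median 3137) in Die animals, and Cd74, the class II invariant chain, from 11936 to 21793 (median 17099.8) in sham and 8202 to 24466 (median 11972) in Die animals. In both genes the Die range was wider than the sham range at either end.

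**Figure D4:**
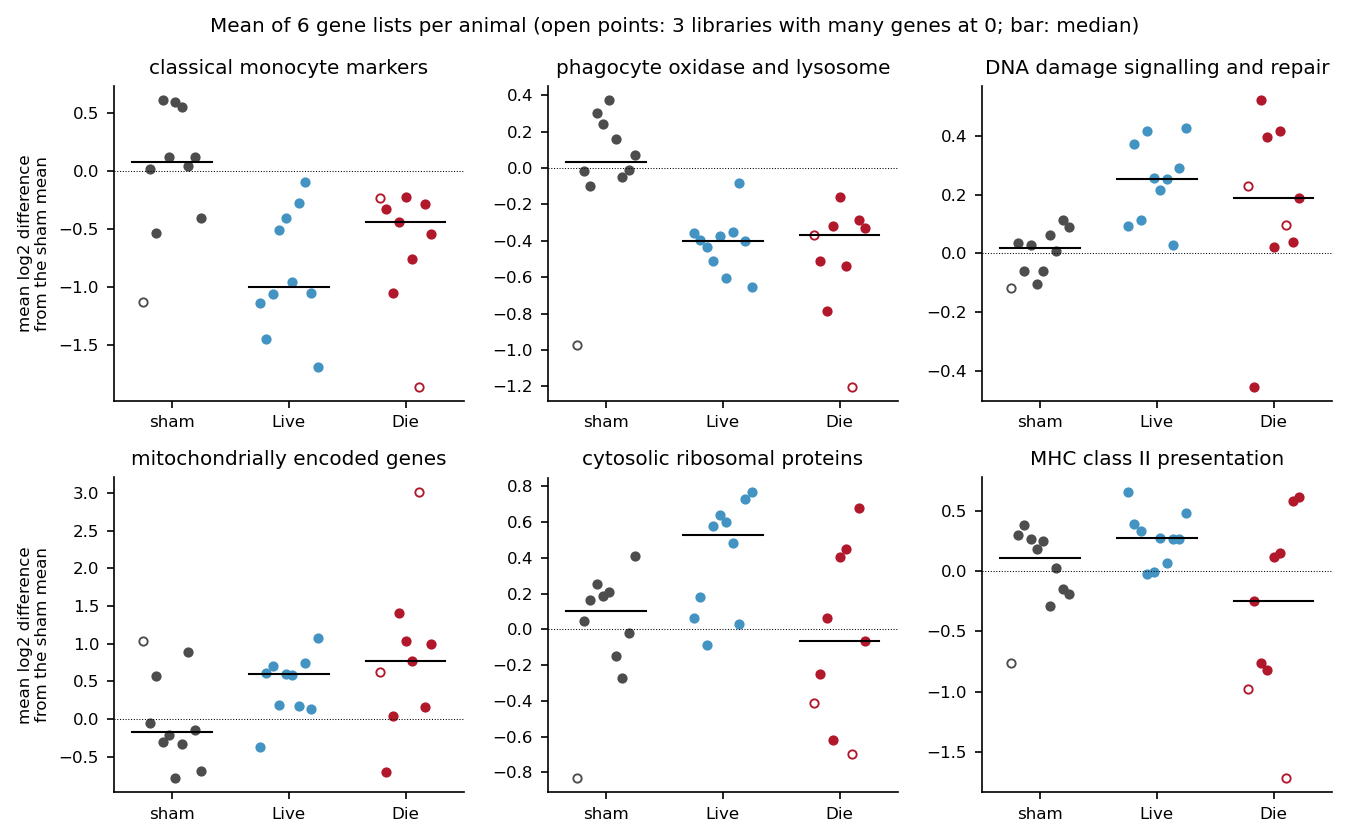
Mean of 6 gene lists in each animal, as the log2 difference from the sham mean (y axis), in sham (n = 10), Live (n = 10) and Die (n = 9). Bars are medians and open points are the 3 libraries with many genes at 0. All Die points lie below the sham median for classical monocyte markers and for phagocyte genes, and for MHC class II genes Die points lie beyond both ends of the sham range. Among the lists not shown, all Die means also lay below the sham median for non-classical monocyte markers, complement and Fc receptors and apoptosis regulators.

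Irradiated animals labelled Live were compared with the same sham animals, so the values of both groups against sham are only set side by side. On the same genes, 40 passed an adjusted p of 0.05 for Live minus sham (0.348%), 37 of them lower (0.321%) and 3 higher (0.0261%). Classical monocyte markers had a median of -0.85 in Live and -0.65 in Die animals. Phagocyte genes had -0.31 and -0.49. For Cx3cr1 the change was -1.53 in Live (adjusted p 0.00105) and -1.19 in Die animals, and for Cd177 -1.64 and -1.08. Os9 ranged from 725 to 1413 in Live animals and Adgre4 from 130 to 619. The Live medians of both genes also lay below the sham medians. Carmil1, which regulates actin capping, was higher than sham in Live animals (log2 change 1.77, adjusted p 0.0254) and differed by 1.27 ± 0.39 in Die animals, with an adjusted p of 0.455.

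The difference between Die and Live animals was tested directly. No gene passed an adjusted p of 0.05 for Die minus Live (limma, 0.0% of 11509), while 1564 genes (13.6%) had an unadjusted p under 0.05, 862 of them lower (7.49%) and 702 higher (6.1%). No gene passed without the 3 libraries either, and 1149 (9.98%) had an unadjusted p under 0.05, 561 lower (4.87%) and 588 higher (5.11%). Cybb was higher in Die than in Live animals by 0.67 ± 0.18 (unadjusted p 0.000565) and Ccr2 by 0.68 ± 0.25 (unadjusted p 0.00988), neither past the adjusted threshold. Cln8 differed by -0.83 ± 0.27, Tmbim1 by -0.76 ± 0.22 and Cotl1 by -0.50 ± 0.17, with lower values in Die animals. Tia1 differed by 0.70 ± 0.20, Mysm1 by 0.82 ± 0.22 and Atr by 0.76 ± 0.19, with higher values in Die animals. The changes of single genes for Die minus Live are with all libraries only. The highest Die values of Mysm1 were in Die replicates 2 (3216) and 14 (3175). Pf4 differed by -0.82 ± 0.25 and the platelet glycoprotein gene Gp9 by -1.28 ± 0.38. Of 40 ribosomal protein genes, 21 had an unadjusted p under 0.05 for Die minus Live, all lower. This number was 11 without the 3 libraries. Of 10 MHC class II genes 7 did so with all libraries and 3 without the 3 libraries. Splicing genes and chromatin regulators had 6 each at that level, all higher, and 2 and 4 without the 3 libraries. The libraries of the 2 irradiated groups also differed as a whole. The mean share of 7S RNA was 27.4% (SD 9.34) over the 10 Live libraries. For the 9 Die libraries it was 14.2% (SD 10.8). Mean total values were 32.3 M for Live and 24.9 M for Die. Whether these differences bear on the list counts for Die minus Live was not tested.

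**Figure D5:**
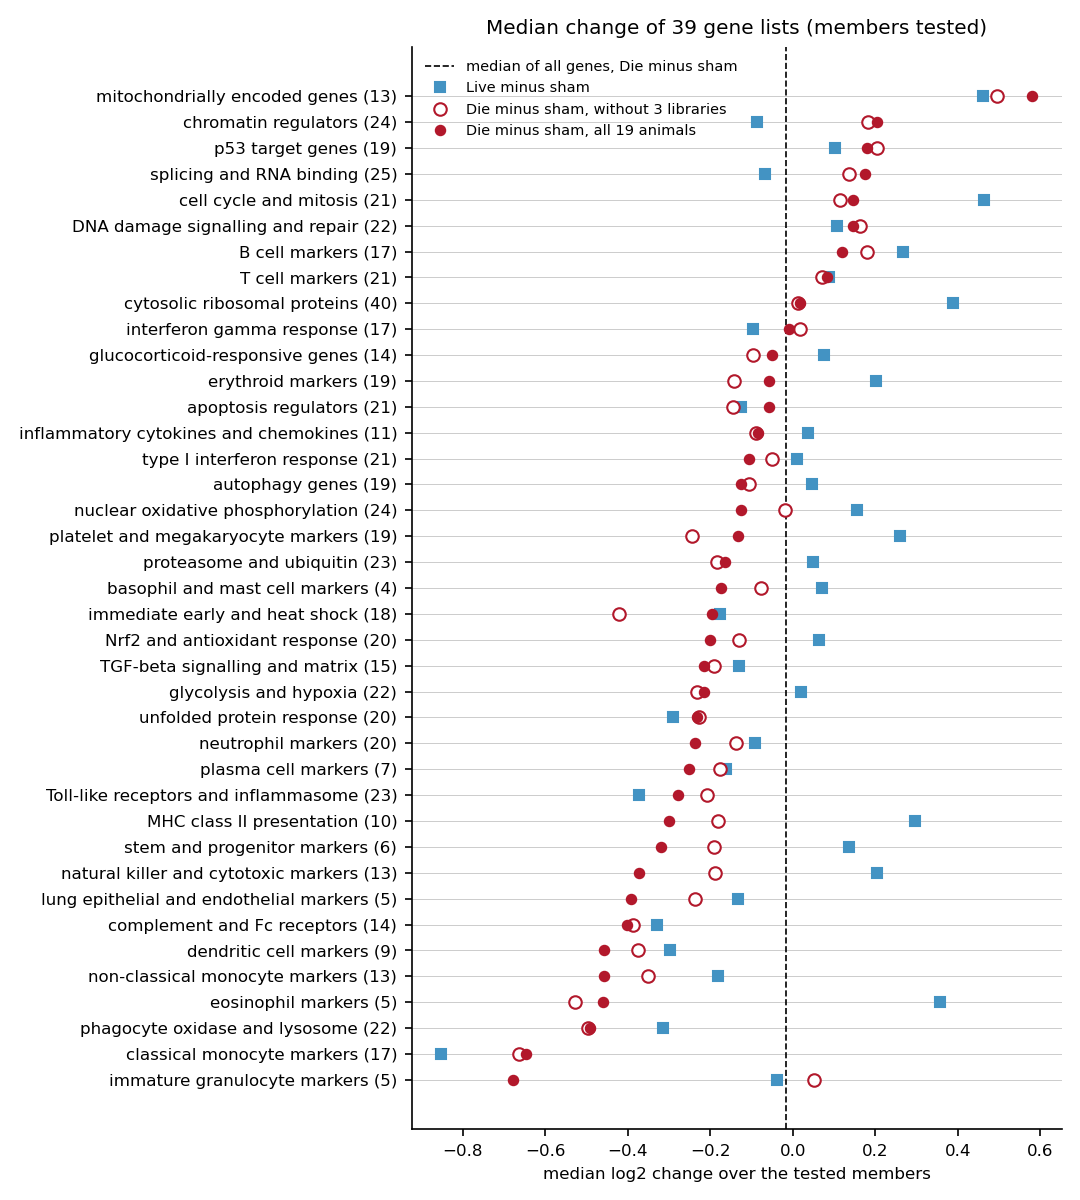
Median log2 change over the tested members of 39 gene lists (x axis), for Die minus sham with all 19 animals (filled circles) and without 3 libraries (open circles), and for Live minus sham (squares), which shares the sham animals. The number of members tested is in brackets and the dashed line is the median of all genes. Phagocyte and classical monocyte lists lie at the low end in each, and the immature granulocyte median is -0.68 with all animals and 0.05 without the 3 libraries.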

How the data were processed

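Total RNA of whole blood was sequenced per animal. The authors deposited 1 normalised signal value per gene symbol and library. How it was computed is not given in the sources used here. Tools listed in the submitters' processing notes, with no role or order, are DESeq2, sleuth, kallisto 0.44.0 and bcl2fastq 2.19, with the build GRCm38. The annotation is not given in the sources used here. At most 17.2% of values per library were whole multiples, within 0.01, of its commonest low value, so no read counts were recovered and no count test was run.

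limma 3.58.1 in R 4.3.3, with a trend, was fitted to log2(value + 0.5) of 9 Die and 10 sham libraries, over genes with a mean of at least 50. Adding 0.5 shrinks ratios between values near 0. A value listed at 0 becomes -1 on this scale and can enlarge a change, as for Klre1 in sham replicate 1. Die minus Live and Live minus sham came from a fit over 29 libraries. P-values were two-sided and adjusted by Benjamini-Hochberg over all 11509 genes. Permutations used Python 3.11.15 with numpy 2.4.6, and coordinates are from GENCODE M21. The limma step was checked on simulated data with 200 changed genes. SE is limma's standard error. P-values set the difference of group means against the spread between animals, and the number of libraries and their listed zeros limit precision.

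The members and the 39 gene lists were chosen with earlier results of these data known. Named genes were 10 per direction with the smallest p, up to 4 per list and 14 reference genes, and most of them are reported. Some results are not reported here. Genes called only without 3 libraries were named after their values were seen. Of 733 listed symbols, 638 were tested. The libraries left out had many genes at 0, which was seen in the data. Replicate numbers were not taken as pairs in the main fit. Same-numbered sham and Die libraries deviated from their group means with correlations of -0.187 to -0.0674. So few shared numbers, with Die replicate 2 among them, cannot exclude a pairing. Alternatives covered pseudocount, filter, scaling, covariates, weights and each library left out.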

Additional observations from a re-analysis of the deposited data

Results flagged for a closer look

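Single animals that stand far from the rest of their group were sought in 244 sets of values with Dixon's criterion, which chance meets in about 5% of groups. It was met 40 times, mostly by sham replicate 1. That library had 788 tested genes listed at 0 (next highest sham 200) and a 7S RNA share of 2.73% (next lowest sham 14.7%). On the log2(normalised value + 0.5) scale it was the lowest sham animal for Csf1r (9.64), Cd79a (8.76), Cd3e (5.55), Psap (12.13), Aldh3b1 (7.47), Emilin2 (10.17), Nrp1 (6.96), Irf8 (9.99), Myd88 (8.33) and Klre1 (-1). It was the highest for Mysm1 (10.98), Il7r (12.64), Polk (9.28) and Rbm39 (14.04). As a mean log2 difference from the sham mean, it was the lowest sham animal for immediate early and heat shock genes (-1.51), apoptosis regulators (-1.39), non-classical monocyte markers (-1.27), phagocyte oxidase and lysosome genes (-0.97), cytokines and chemokines (-0.92), complement and Fc receptors (-0.80), glucocorticoid-responsive genes (-0.77) and glycolysis and hypoxia genes (-0.68). For splicing genes it was the highest (0.29).

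Die replicate 14 was the lowest Die animal for Csf1r (7.84), Psap (11.26) and Emilin2 (9.62) and the highest for Tlr1 (10.98). Its list means were the lowest for immature granulocyte markers (-3.34), classical monocyte markers (-1.86), non-classical monocyte markers (-1.38) and TGF-beta and matrix genes (-0.83). Die replicate 2 was the highest Die animal for Slc25a40 (9.69) and the lowest for basophil and mast cell markers (-3.01) and p53 targets (-1.02). Sham replicate 9 was the lowest sham animal for p53 targets (-1.12). Sham replicate 10 was the highest for Ckap2 (8.24), platelet markers (1.17) and total value (39.3 M).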

How the results depend on the processing

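The number of genes called for Die minus sham was 0 with all 19 animals and depended on single libraries. It was 9 without the 3 libraries with many genes at 0, 112 with array weights, 2 with the number of genes above 0 as a covariate and 3 at an adjusted p under 0.10. Leaving out each library in turn gave 0 to 19 calls, with 19 without sham replicate 1 and 1 without Die replicate 11. The replicate block over 4 shared numbers gave 3 calls, and the same 8 animals with no block gave 64, a setting chosen after seeing the data. All other settings gave 0, as did Die minus Live except under quantile normalisation (1 call). The mitochondrial rRNA share as a covariate was also added after seeing the data.

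Of the genes named in the text, Pf4 and Hba-a1 changed sign. The Pf4 log2 change was 0.01 and became -0.00411 under upper quartile scaling, -0.83 in the replicate block and in the same animals with no block, and -0.0269 with the mitochondrial rRNA share as a covariate. It lay between -0.0658 and 0.17 as each library was left out. The Hba-a1 log2 change was -0.04 and became 0.11 with array weights and 0.22 after adjustment for the 7S share. It lay between -0.23 and 0.16 as each library was left out. The cause was not tested.

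Among list medians, those of immature granulocytes, basophils, B and T cells, erythroid genes, interferon genes, ribosomal proteins, nuclear oxidative phosphorylation, apoptosis regulators and autophagy changed sign in at least 1 setting. Those of classical monocyte and phagocyte genes did not.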
